A study of Mus musculus with 8 samples.

Results

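The genes described here are cytosolic chaperones and targets of the heat shock factor HSF1, 36 genes chosen by name out of 24143 genes named in the deposited transcript tables of a mouse liver time course. The list was drawn up with earlier results of these data known. A count of members set beside the share of all genes is therefore a description and no independent test. Each gene was represented by 1 transcript, the one with the largest lower value summed over the libraries. This transcript was under 1000 bases for 12 members, and for 18 members it was also the transcript with the most reads. All 36 genes were found in the tables, and all 36 were among the 10855 genes that passed the filter on low reads (at least 20 reads in at least 2 libraries). The list covers 2 HSP90 genes, 4 HSP70 genes, 3 HSP110 genes, 7 HSP40 genes, 2 nucleotide exchange factors, 7 cochaperones, 3 small heat shock proteins, 3 mitochondrial chaperones, 3 chaperonin subunits and 2 heat shock factors.

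The study sequenced polyadenylated RNA from livers of wild-type (WT) mice of the C57/BL6 strain at 8 circadian times (CT), every 6 h from CT23 to CT65. The mice had lived under 12 h of light and 12 h of darkness and were then kept in constant darkness, and CT is the hour of their internal clock. Each library was made from equal parts of the RNA of 3 animals, and 1 library was made per time, so no time has a replicate library. No treatment or mutation was applied, and sex and age are not in the labels. CT23 and CT47 sample the end of the subjective night (the CT23 phase), CT29 and CT53 the middle of the subjective day (the CT5 phase), CT35 and CT59 the end of the subjective day (the CT11 phase), and CT41 and CT65 the middle of the subjective night (the CT17 phase). Each file name carries its own sequencing lane, so lane and time cannot be told apart.

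Chaperones bind unfolded proteins and help them reach or regain their shape. HSP70 and HSP40 proteins take up new or unfolded chains, nucleotide exchange factors and HSP110 proteins release them, and HSP90 with its cochaperones finishes the folding of kinases and steroid receptors. When unfolded proteins or heat draw chaperones away from HSF1, the factor enters the nucleus and binds heat shock elements in the promoters of these genes. Mice are active and warmer at night, and HSF1 is known to act in mouse liver with a daily rhythm.

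Both mid-night libraries, CT41 and CT65, were above the other 6 for 9 members, most of them parts of the cytosolic HSP90 and HSP70 machines, against 3.11% of all genes tested. After rescaling the libraries these were 10 members and 6.39% of genes. For Bag3 and Hspb8 the margin over CT23 was narrow, and Hspa8 lost the pattern with the transcript of most reads. Hsph1, which encodes the HSP110 protein HSP105, and Hsp90aa1, which encodes the inducible HSP90 alpha, had a called 24-h component, 3.34-fold and 3.33-fold between fitted peak and trough, with peaks at circadian time 17.4 h (SE 0.54) and 18.6 h (SE 0.71). Fkbp4, Bag3, Hspa8, Stip1, Hspb1 and Hsp90ab1 had fitted folds of 1.94 to 2.57 with peaks between 16.1 and 20.6 h, and missed the threshold in this fit. The mitochondrial chaperones, the chaperonin subunits and both heat shock factors had fitted folds of at most 1.34, and none of them was called.

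Among the members, 2 of 36 were called for the 24-h component (limma, adjusted p under 0.05), against 1.84% of all 10855 genes tested. An unadjusted p under 0.05 was found for 9 of the 36 members and for 1624 genes in all. With edgeR on the reads recovered from the same values, 6 members were called (Bag3, Fkbp4, Hsp90aa1, Hspa8, Hsph1 and Stip1), against 2.54% of genes. DESeq2 on those reads called 7 (Hsp90ab1 in addition), against 5.29% of genes. Taking for each gene the most-read transcript, limma called 4 members (Bag3, Fkbp4, Hsp90aa1 and Hsph1) against 3.05% of genes. A p-value here reflects how far 8 pooled libraries scatter about a curve, not how far animals differ.

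The libraries were even in depth but for CT35. Levels are in RPKM, reads per kilobase of transcript scaled to library depth, and the read totals that this scale implies were 11.7 to 13.9 M reads in 7 libraries and 22.9 M reads in CT35, where introns took 16.0% of intron and gene reads against 20.8 to 23.1%. Without CT35, 4 members were called for the 24-h component (Fkbp4, Hsp90aa1, Hspb1 and Hsph1, beside 252 genes in all) and 5 for mid day against mid night (Fkbp4, Hsp90aa1, Hspa8, Hsph1 and Stip1, beside 162 genes). Hepatocyte markers summed to 47546 to 74415 RPKM, and all 6 were present. Of 9 marker lists for other cells, the 2 for neutrophils and skeletal muscle had no gene that passed the filter, so no call could be made there. Those for lymphocytes, pancreas and erythroid cells had 2 of 5, 1 of 3 and 2 of 3 genes tested, and those for Kupffer cells, cholangiocytes, endothelial and stellate cells 6 of 6, 4 of 5, 5 of 5 and 5 of 5, with 0 genes called for the 24-h component by limma. The 6 Kupffer cell markers, all present, summed to 91.4 and 82.3 RPKM in the CT5-phase libraries and 76.3 and 56.8 in those of the CT17 phase, the 5 lymphocyte markers, all present, to 4.11 and 3.05 against 1.59 and 1.79, and the 2 neutrophil markers to 1.23 in both against 0.175 and 0.479. Their part in the results was not tested. Cholangiocyte markers summed to 46.97 RPKM in CT35 and 15.7 to 24.7 in the others, endothelial markers to 45.5 to 65.4, stellate markers to 54.2 to 75.4 and 2 matched erythroid markers to 51.4 to 101. Pancreas markers summed to 1.54 to 4.91 with 2 of 3 at 0 in every library, and skeletal muscle markers to at most 0.0541 with 1 of 2 at 0. In such tissue RNA, fewer cells of a type and less RNA per cell cannot be told apart.

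**Figure D1:**
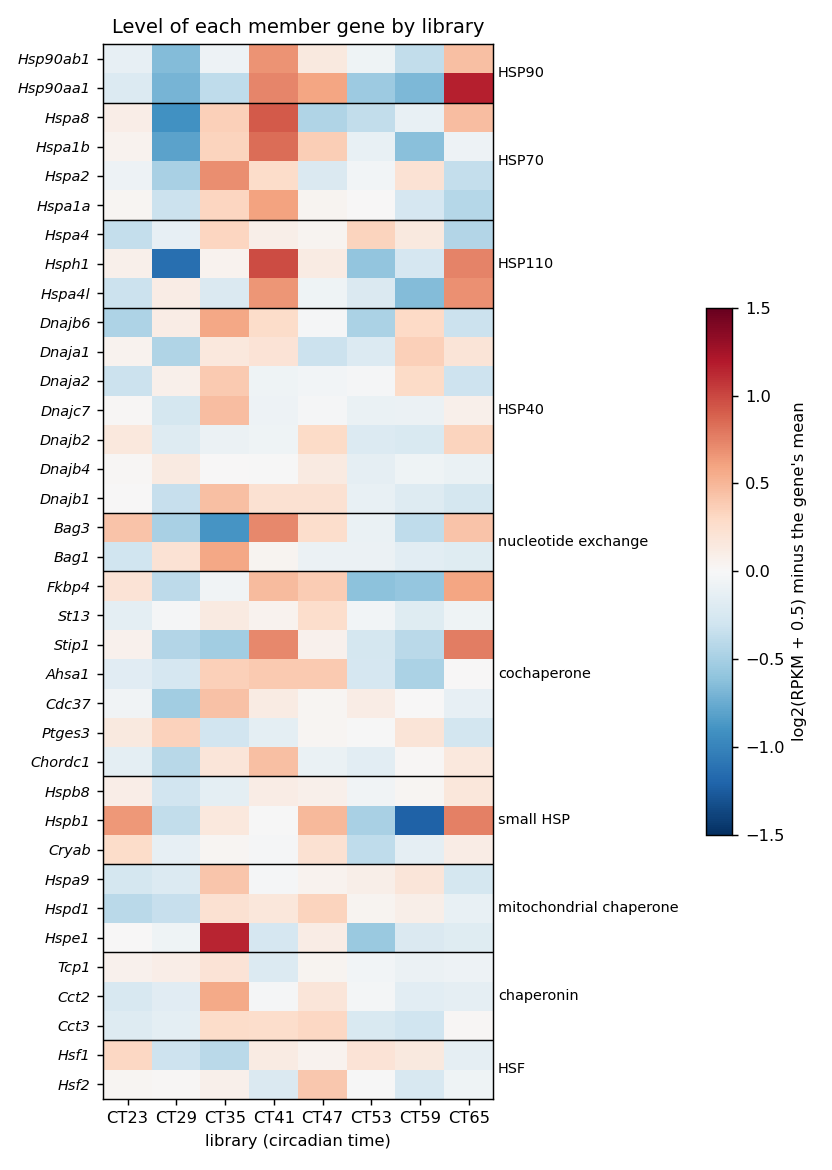
Each row is 1 of the 36 member genes, grouped by role, and each column 1 library; colour is log2(RPKM + 0.5) minus the mean of the gene over the 8 libraries. Hsph1, Hsp90aa1, Hsp90ab1, Hspa8, Stip1, Fkbp4 and Bag3 have their highest values in CT41 and CT65, and Hspe1 stands out in CT35 (34.7 RPKM) and not in CT59 (13.3 RPKM).

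The letters that HSF1 binds were looked up in the promoters, because the list is named for targets of this factor. A share of members with the letters above that of all genes is therefore no independent result. The RefSeq promoter table (build GRCm38.p6, 250 bases before to 50 bases after each annotated start) held 29 of the 36 members. Hspa9, Cryab, Hsp90aa1, St13, Hspa8, Hsf1 and Hsp90ab1 were not matched. A heat shock element was searched on both strands as GAANNTTCNNGAA, and its shorter parts as GAANNTTC and as TTCNNGAA, both of which read the same on either strand and are contained in the longer one. A gene can have several annotated starts and was counted when any of its promoters held the letters. The long form was present in 5 of the 29 members (Chordc1, Dnajb6, Hspd1, Hspe1 and Hsph1) and in 0.662% of the 27025 genes in the table. By promoter, it was in 7 of 39 member entries and in 0.603% of all 32851. GAANNTTC was present in 13 members and in 9.04% of genes (15 entries, 7.86% of promoters), and TTCNNGAA in 7 members and in 9.60% of genes (9 entries, 8.52% of promoters). The matching letters are in capitals below, with the sequences read 5′ to 3′ on the strand of the gene. Hsph1 is shown as the member with the smallest adjusted p, Chordc1 and Hspe1 for their uninterrupted elements, and Hspa1b for its twin Hspa1a. Fkbp4 and Hspb1 are shown as genes with the short form and a fitted peak in the night, though neither was called in the main limma fit.
Hsph1 (chr5:149636280-149636308, minus strand, just after the start): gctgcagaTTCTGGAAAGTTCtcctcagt
Chordc1 (chr9:18292255-18292293, plus strand, across the start): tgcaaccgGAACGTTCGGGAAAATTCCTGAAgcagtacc
Hspe1 (chr1:55088034-55088101, plus strand): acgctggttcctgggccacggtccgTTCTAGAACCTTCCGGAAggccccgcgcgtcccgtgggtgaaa
Fkbp4 (chr6:128438775-128438832, minus strand): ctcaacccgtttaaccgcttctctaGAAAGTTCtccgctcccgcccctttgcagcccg
Hspb1 (chr5:135887777-135887854, plus strand): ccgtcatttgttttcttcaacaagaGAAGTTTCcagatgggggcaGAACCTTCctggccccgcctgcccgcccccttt
Hspa1b (chr17:34959310-34959367, minus strand): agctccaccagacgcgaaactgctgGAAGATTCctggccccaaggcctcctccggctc
The Hspe1 stretch is at the same time that of Hspd1, which lies head to head with it on the minus strand, and the element starts 89 bases before the Hspe1 start and 144 bases before a start of Hspd1. The Hspa1a promoter holds the same 58 letters as the Hspa1b stretch, 104 bases before the start in both genes. A match is a description of letters and no measure of binding. Stip1 and Hspa4l, both highest in CT41 and CT65, are among the members with no match in this window. The 5 members with the long form had fitted peaks at 11.9 h (Dnajb6 and Hspe1), 13.8 h (Hspd1), 15.6 h (Chordc1) and 17.4 h (Hsph1). A link between the letters and the time of the peak was not tested.

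HSP90 carries the folding of signalling proteins, and its alpha form, Hsp90aa1, is the heat-inducible one. Hsp90aa1 stood at 26.5 RPKM in CT23, 18.6 in CT29, 23.4 in CT35, 51.3 in CT41, 46.5 in CT47, 20.8 in CT53, 19.0 in CT59 and 69.4 in CT65. The CT17-phase libraries were above the other 6, with CT47 close below, and the day libraries lay together at the bottom. The log2 difference between peak and trough was 1.73 (SE 0.32, limma adjusted p = 0.0414). The values stem from a short model of 487 bases, for which 38.7% of the reads in the upper deposited value were absent from the lower one. With the most-read model of 3281 bases the levels were lower, 8.94 in CT29 to 32.8 in CT65, and the log2 difference was 1.73 again (adjusted p = 0.00609). The call was lost without any 1 of CT29, CT41, CT47, CT53, CT59 or CT65 (adjusted p 0.0655 to 0.128).

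Hsp90ab1, the constitutive beta form, stood at 279.9 RPKM in CT23, 193 in CT29, 289 in CT35, 485 in CT41, 336 in CT47, 291 in CT53, 236 in CT59 and 416 in CT65. Both CT17-phase libraries were again above the other 6, and the lowest was CT29. The fitted fold was 1.94, with a peak at 17.9 h (SE 1.09, adjusted p = 0.197 by limma). With edgeR and the most-read transcript it was among 8 members called, against 3.54% of genes, the others being Bag3, Fkbp4, Hsp90aa1, Hspa4l, Hspa8, Hsph1 and Stip1.

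Hspa8, the constitutive cytosolic HSP70 (HSC70), was the most abundant member in RPKM. It stood at 381 RPKM in CT23, 190.0 in CT29, 457 in CT35, 677 in CT41, 260.3 in CT47, 275 in CT53, 330.1 in CT59 and 489.6 in CT65. CT41 and CT65 were the 2 highest, and CT35 came next. The fitted fold was 2.57 with a peak at 16.1 h (SE 0.82, adjusted p = 0.0773 by limma). Its level depends on the chosen model: with the most-read model, where CT35 (203) was above CT65 (174), its mean was 148 RPKM, below that of Hsp90ab1 with 257, against 382 and 316 with the models used here. For Hspa8, 57.1% of the reads in the upper deposited value were absent from the lower one. Whether paralogs or processed copies share these reads was not tested.

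The stress-inducible HSP70 genes Hspa1a and Hspa1b were low in these livers. Hspa1b stood at 2.43 RPKM in CT23, 1.12 in CT29, 3.06 in CT35, 4.56 in CT41, 3.15 in CT47, 2.12 in CT53, 1.33 in CT59 and 2.18 in CT65. The first CT17-phase library was the highest and the second lay among the day libraries, 1.03 times the CT53 value. The 24-h component of Hspa1b was not called (1.88-fold, adjusted p = 0.42). Hspa1a had 4 to 33 reads per library in the lower value and 87 to 769 in the upper one. Of its upper reads 96.1% were absent from the lower value, and 77.1% of those of Hspa1b, so most reads of the upper value are not assigned to either gene in the lower one. In the upper value Hspa1b ranged from 3.55 RPKM in CT29 to 17.04 in CT41. Hspa2, an HSP70 best known from testis, stayed between 0.659 and 2.13 RPKM and was not called.

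**Figure D2:**
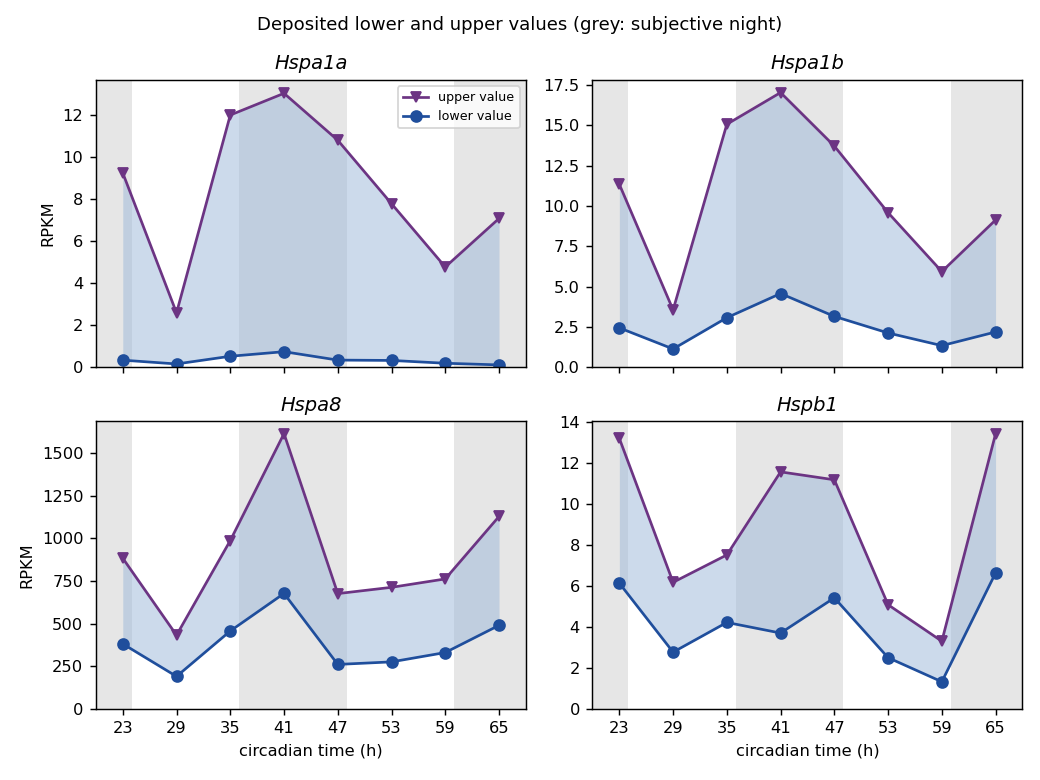
Lower and upper deposited RPKM of Hspa1a, Hspa1b, Hspa8 and Hspb1 by circadian time, 1 library per point, with subjective night in grey. In Hspa1a almost all reads lie between the lines (96.1% are in the upper value only), and both lines of Hspa8 are highest in CT41 and CT65.

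HSP110 proteins release nucleotide from HSP70 and help dissolve aggregates. Hsph1 stood at 11.9 RPKM in CT23, 4.87 in CT29, 11.7 in CT35, 22.7 in CT41, 12.3 in CT47, 7.29 in CT53, 9.38 in CT59 and 19.2 in CT65. Both CT17-phase libraries were above the other 6 and both CT5-phase libraries below the other 6. CT41 was 4.66 times CT29 on the first day, and CT65 was 2.64 times CT53 on the second. The log2 difference between peak and trough was 1.74 (SE 0.24, limma adjusted p = 0.0114). The call was lost without CT29 (adjusted p = 0.0531) or CT41 (0.0656). Hsph1 lies on chromosome 5 from 150419744 to 150438913 in mm9. Its chosen model leaves out a 123-base exon at 150433962 to 150434084. No read across that skip was listed in any of the 8 libraries, while 66 and 85 reads joined the exon to its neighbours. The model with that exon gave the same log2 difference, 1.74 (adjusted p = 0.0035).

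The other HSP110 genes did not share this pattern in full. Hspa4 (APG-2) stood at 39.0 RPKM in CT23, 46.3 in CT29, 62.8 in CT35, 53.3 in CT41, 51.6 in CT47, 63.7 in CT53, 55.6 in CT59 and 37.1 in CT65, and the CT17-phase libraries lay apart from each other. Its fitted fold was 1.40 (adjusted p = 0.594). The Hspa4 levels stem from a model of 630 bases, with a mean of 51.2 RPKM against 15.2 for the most-read model of 4618 bases. Hspa4l was low, at 2.52 RPKM in CT23, 3.60 in CT29, 2.74 in CT35, 5.49 in CT41, 3.13 in CT47, 2.76 in CT53, 1.90 in CT59 and 5.59 in CT65, with the CT17-phase libraries above the other 6. Its fitted fold was 1.70 (adjusted p = 0.49), and the fit of a 12-h term gave it an unadjusted p of 0.00312 and an adjusted p of 0.589.

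HSP40 proteins (J proteins) bring substrates to HSP70, and none of the 7 was called. Dnajb6, of which the chosen model holds only 123 bases, stood at 24.4 RPKM in CT23, 36.5 in CT29, 50.5 in CT35, 41.02 in CT41, 33.4 in CT47, 24.2 in CT53, 41.5 in CT59 and 27.0 in CT65. Its highest libraries were those of the CT11 phase, with a fitted peak at 11.9 h (adjusted p = 0.471), and its mean ranked 24 of 36 with the most-read model and 11 here. Dnaja2 likewise had its highest values in the CT11 phase, 17.8 and 16.5 RPKM against 10.7 to 14.3 (1.47-fold, 9.45 h, adjusted p = 0.425). Dnaja1, a partner of HSC70, and Dnajb1, the classic HSF1-induced partner of HSP70, had fitted folds of 1.57 and 1.15. For Dnaja1, 77.6% of the upper reads were absent from the lower value. Dnajb2, Dnajb4 and Dnajc7 had fitted folds of 1.42, 1.09 and 1.20.

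Bag3, which couples HSP70 to selective autophagy and small heat shock proteins, stood at 39.9 RPKM in CT23, 20.9 in CT29, 15.7 in CT35, 49.1 in CT41, 35.6 in CT47, 27.5 in CT53, 22.6 in CT59 and 39.9 in CT65. All 4 night libraries (CT23, CT41, CT47 and CT65) were above all 4 day libraries. The share of all genes with this order was not counted. Its fitted fold was 2.48, and its peak at 20.2 h (SE 0.82) was later than that of Hspa8 at 16.1 h (SE 0.82), a difference that was not tested. The adjusted p was 0.0768 by limma and 0.0355 by edgeR. Bag1, the other nucleotide exchange factor on the list, had a fitted fold of 1.34 with CT35 as its highest library.

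Cochaperones steer HSP90 and HSP70 through their cycles. Stip1 (HOP) hands clients from HSP70 to HSP90 and stood at 41.9 RPKM in CT23, 29.5 in CT29, 27.7 in CT35, 66.2 in CT41, 42.1 in CT47, 33.4 in CT53, 30.3 in CT59 and 68.7 in CT65. CT41 and CT65 stood apart above the other 6 libraries of Stip1. Fkbp4 (FKBP52), the immunophilin of steroid receptor complexes, stood at 51.3 RPKM in CT23, 33.7 in CT29, 42.9 in CT35, 62.2 in CT41, 58.0 in CT47, 29.01 in CT53, 29.5 in CT59 and 67.1 in CT65. All 4 night libraries of Fkbp4 were above all 4 day libraries, as for Bag3. By the values given here the same held for Hsp90aa1, Hsph1, Stip1 and Hspb8. The fitted folds were 2.32 for Stip1 at 18.7 h (SE 0.85, limma adjusted p = 0.0868) and 2.30 for Fkbp4 at 19.0 h (SE 0.78, adjusted p = 0.0631). By edgeR the adjusted p was 0.0352 for Stip1 and 0.019 for Fkbp4.

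The other cochaperones had smaller fitted folds. Chordc1 (morgana), an HSP90 partner, had a fitted fold of 1.55 at 15.6 h (SE 1.32, adjusted p = 0.306), with 6.44 RPKM in CT41 and 3.32 in CT29 at its extremes, and both CT5-phase libraries were below the other 6. Ahsa1, the activator of the HSP90 ATPase, had a fitted fold of 1.40 (adjusted p = 0.663). Cdc37, which brings kinases to HSP90, Ptges3 (p23), which closes the HSP90 cycle, and St13 (HIP), which stabilises HSP70, had fitted folds of 1.24, 1.33 and 1.06. With these transcripts and settings limma called none of the 7 cochaperones for the 24-h component, and it called Fkbp4 after TMM rescaling (adjusted p = 0.0387), with at least 100 reads required (0.0372) and without CT35 (0.0265).

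**Figure D3:**
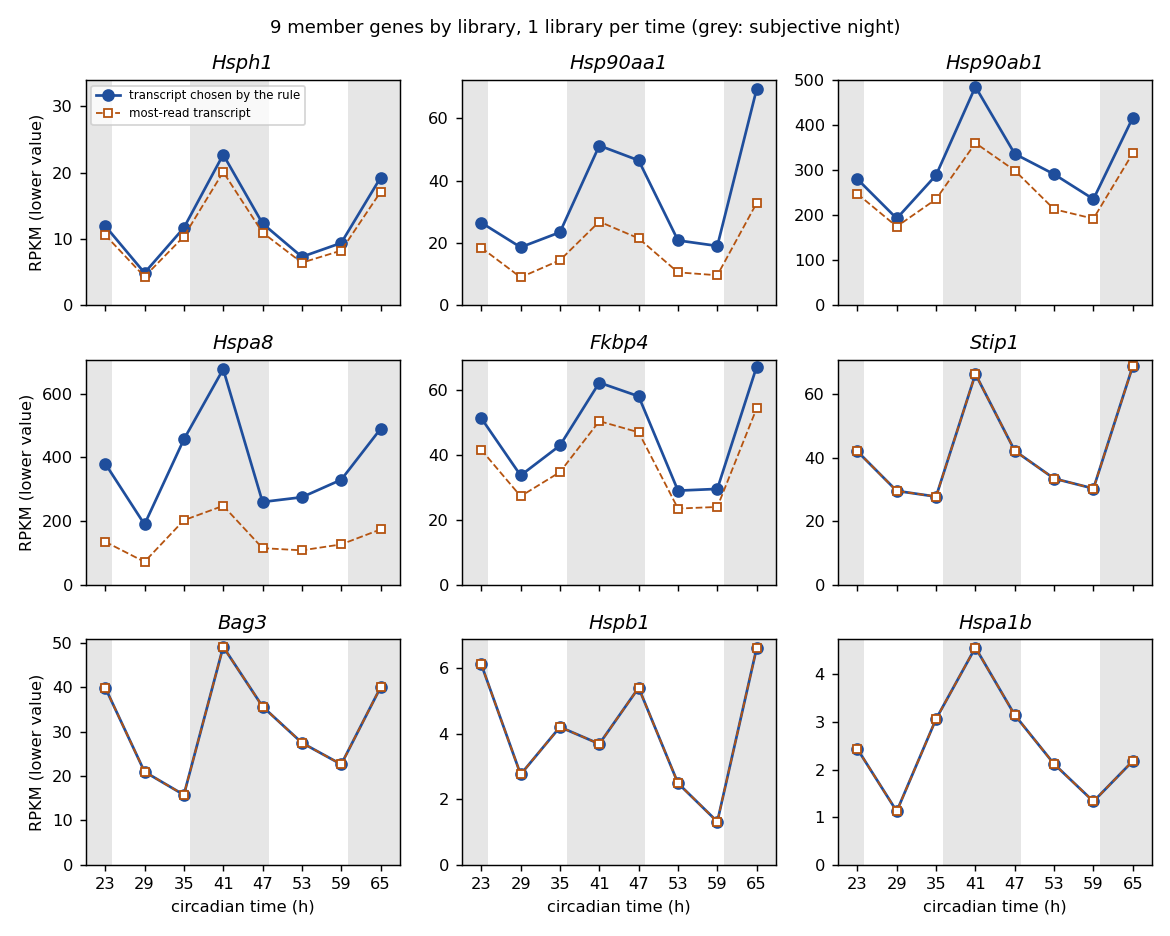
RPKM (lower value) of 9 member genes by circadian time, 1 library per point, for the transcript of largest summed lower value (the rule's, blue) and the most-read transcript (orange), with subjective night in grey. Hsph1, Hsp90aa1, Hsp90ab1, Fkbp4, Stip1 and Bag3 have their 2 highest values in CT41 and CT65 under both choices, Hspa8 with the rule's transcript only, and Hspb1 and Hspa1b with neither.

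Small heat shock proteins hold unfolded proteins in reserve. Hspb8, which works with Bag3, was the most abundant of them and stood at 103 RPKM in CT23, 78.8 in CT29, 86.5 in CT35, 104 in CT41, 101 in CT47, 92.9 in CT53, 98.4 in CT59 and 108 in CT65. Its whole range was 1.37-fold, and the 24-h component was 1.26-fold (adjusted p = 0.671). Hspb1 (HSP25) stood at 6.12 RPKM in CT23, 2.76 in CT29, 4.21 in CT35, 3.69 in CT41, 5.41 in CT47, 2.49 in CT53, 1.32 in CT59 and 6.62 in CT65, from 14 to 87 reads per library. Its highest libraries were CT65, CT23 and CT47, all of the night, and CT41 lay among the day libraries. Of its upper reads 53.2% were absent from the lower value. Its fitted fold was 2.57 at 20.6 h (SE 1.08, adjusted p = 0.192). It was called without CT35 (log2 1.85, adjusted p = 0.0251) and in the upper value (0.0498), and without CT59 its log2 value was 0.99 in place of 1.36 (adjusted p = 0.374). Cryab (alpha B crystallin) stayed between 1.63 and 2.85 RPKM.

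Hspa9 (mortalin), Hspd1 (HSP60) and Hspe1 (HSP10) fold proteins inside mitochondria, and none was called. Hspa9 stood at 58.0 RPKM in CT23, 60.4 in CT29, 93.5 in CT35, 69.2 in CT41, 72.4 in CT47, 74.0 in CT53, 79.5 in CT59 and 58.2 in CT65, with the CT11-phase libraries on top. Hspe1 stood at 34.7 RPKM in CT35 and at 10.4 to 16.8 in the other 7. Hspd1 and Hspe1 share exon bases on opposite strands, 18.8% and 12.5% of the chosen models, and their reads there cannot be separated. The cytosolic chaperonin TRiC, which folds actin and tubulin, was represented by Tcp1, Cct2 and Cct3. Tcp1 stood at 49.7 RPKM in CT23, 50.8 in CT29, 54.7 in CT35, 40.9 in CT41, 48.6 in CT47, 46.03 in CT53, 44.4 in CT59 and 44.9 in CT65, a range of 1.34-fold. Tcp1 shares 16.5% of its exon bases with Acat3 and Mrpl18. Cct2 and Cct3 had fitted folds of 1.18 and 1.26.

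The factors themselves had small fitted folds. Hsf1 stood at 14.5 RPKM in CT23, 9.27 in CT29, 8.64 in CT35, 12.7 in CT41, 12.1 in CT47, 13.5 in CT53, 12.9 in CT59 and 10.6 in CT65, and the libraries of 1 phase differed as much as those of different phases. Its 24-h component was 1.24-fold (adjusted p = 0.795). Hsf2 stood at 2.50 to 4.17 RPKM (1.26-fold, adjusted p = 0.71). A 54-base exon of Hsf2 on chromosome 10, from 57228867 to 57228920 in mm9, was both used and skipped: over the 8 libraries 64 reads skipped it, and 38 and 65 reads joined it to its neighbours. These counts were 2 to 26 per library and were not compared between times.

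More members had their fitted peak nearest to the middle of the subjective night than to any other sampled phase. All 36 fits are counted here, although 2 were called. Small folds leave the peak loosely placed, with an SE of 5.31 h for Dnajb1 and 3.04 h for Cct3. The nearest sampled phase was CT17 for 15 of 36 members, CT11 for 11, CT23 for 8 and CT5 for 2, with a median fold of 1.70 in the first of these. Over all genes tested the CT17 phase held 13.8%, with a median fold of 1.29. Rescaling the libraries by TMM (trimmed mean of M values) moved these to 20 of 36 members and 22.4% of genes. Both CT17-phase libraries were above the other 6 libraries for 9 members, Bag3, Fkbp4, Hsp90aa1, Hsp90ab1, Hspa4l, Hspa8, Hspb8, Hsph1 and Stip1, against 3.11% of genes (10 members and 6.39% after TMM). Both CT11-phase libraries were above the other 6 for Dnaja2, Dnajb6 and Hspa9, against 10.2% of genes (2 members and 7.27% after TMM). Both CT5-phase libraries were below the other 6 for Chordc1, Dnajc7 and Hsph1, against 2.77% of genes (3 and 4.42% after TMM). Both CT23-phase libraries were above the other 6 for Cryab, against 3.45% of genes (after TMM Hsf2 instead, 3.24%). No member had both CT17-phase libraries below the other 6 (12.4% of genes, 6.31% after TMM), both CT5-phase libraries above (6.11%, 4.93%) or both CT23-phase libraries below (2.19%, 3.22%). Both CT11-phase libraries were below the other 6 for no member, against 5.54% of genes, and after TMM for Hspa4l and Stip1, against 8.02%.

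**Figure D4:**
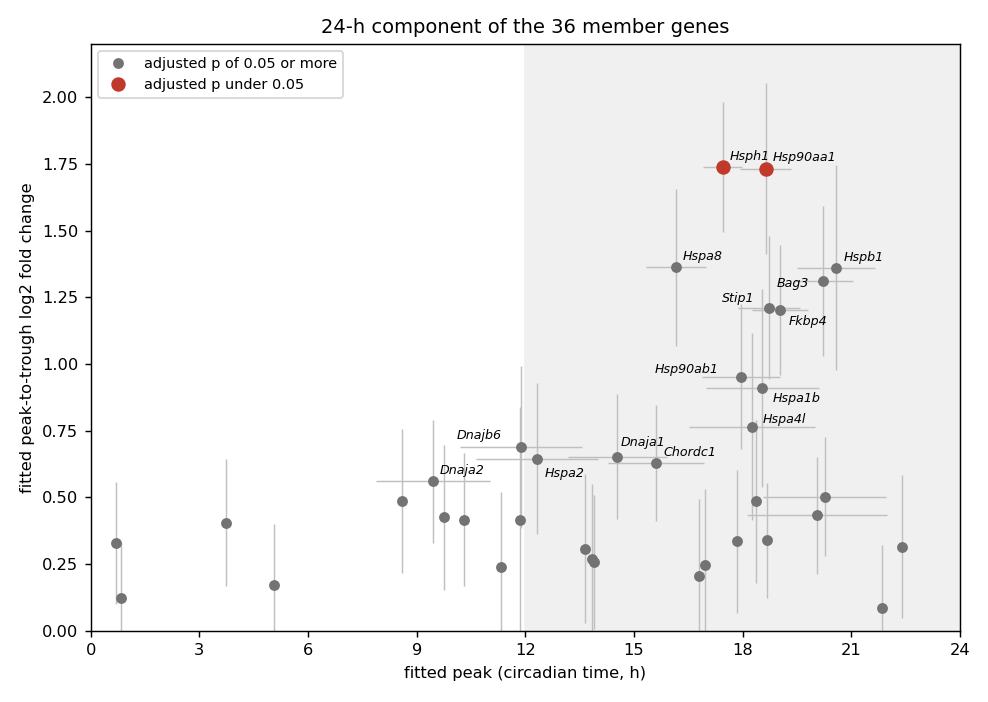
Fitted peak time (horizontal axis, circadian hours) and fitted peak-to-trough log2 fold change (vertical axis) of the 36 members; vertical bars are 1 SE, and horizontal bars are 1 SE of the peak where it is under 2 h. Every member with a log2 value over 0.9 peaks between 16 and 21 h, and the 2 called genes, Hsph1 and Hsp90aa1, are in red.

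Mid day (CT29 and CT53) was set against mid night (CT41 and CT65) in the same fit. Hsph1 was called, 1.73 lower at mid day on the log2 scale (SE 0.24, adjusted p = 0.00966). This was 1 of 36 members, against 0.636% of genes called in either direction, 0.258% as lower and 0.378% as higher at mid day. The call was lost without CT29 (adjusted p = 0.0771) or CT41 (0.0758). The next were Hsp90aa1 (−1.58, adjusted p = 0.0528), Hspa8 (−1.33, 0.0745), Fkbp4 (−1.04, 0.094), Stip1 (−1.09, 0.106) and Hsp90ab1 (−0.92, 0.175). An unadjusted p under 0.05 was found for 10 members, all lower at mid day, and for 1304 genes, of which 367 were lower and 937 higher. The median over the members was −0.23 and over all genes 0.11, and 28 members and 3821 of 10855 genes were below 0. After TMM the medians were −0.33 and 0.000407, with 30 members and 5420 genes below 0. On each day separately, 19 members were lower in the CT5-phase than in the CT17-phase library, against 15.7% of genes (24 members and 27.6% after TMM). By edgeR 5 members were called in this comparison (Fkbp4, Hsp90aa1, Hspa8, Hsph1 and Stip1), against 0.903% of genes, and by DESeq2 7 (with Bag3 and Hsp90ab1 in addition), against 1.90%. With the most-read transcript limma called 2 (Hsp90aa1 and Hsph1), against 1.21%, and edgeR 6 (Fkbp4, Hsp90aa1, Hsp90ab1, Hspa8, Hsph1 and Stip1), against 1.25%.

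Late night (CT23 and CT47) against late day (CT35 and CT59) gave no called member among 36, against 1.33% of genes. An unadjusted p under 0.05 by limma was found for 6 members and for 1365 of the 10855 genes. Hspb1 (1.10), Bag3 (0.98), Hsp90aa1 (0.72) and Fkbp4 (0.61) had positive log2 differences, and Dnajb6 (−0.67) and Dnaja2 (−0.51) negative ones. By edgeR no member was called, against 1.82% of genes, and 7 members and 1495 genes had an unadjusted p under 0.05. DESeq2 called Bag3, against 3.30%. With the most-read transcript limma and edgeR called no member, against 2.00% and 2.25% of 11483 genes. Below an unadjusted p of 0.05 were 8 members and 1588 genes by limma, and 9 members and 1733 genes by edgeR. For Hspb1 the difference rested on single libraries: without CT35 it was called (log2 1.67, adjusted p = 0.0381), and without CT59 it was 0.57 (adjusted p = 0.644). For the 12-h component and for the second day against the first, limma called no member and 0.00% of genes. At an unadjusted p under 0.05 were 2 members and 866 genes for the 12-h component, and 0 members and 257 genes for the day. By edgeR the members called were 0 in both, and by DESeq2 0 in both, while DESeq2 called 21 genes (0.193%) for the 12-h component and 1 (0.00921%) for the day.

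Reads in introns, which come largely from RNA not yet spliced, were sufficient in 27 members. None was called for the 24-h component by limma, against 1.65% of 8732 genes, and 6 members and 953 genes had an unadjusted p under 0.05. Hsph1 introns held 92 reads in CT23, 37 in CT29, 100 in CT35, 133 in CT41, 104 in CT47, 44 in CT53, 69 in CT59 and 107 in CT65. Per length and depth they were highest in CT41, 0.706 RPKM, and lowest in CT29, 0.191, as the transcript was, with a fitted peak at 18.4 h (SE 0.80, adjusted p = 0.053). Other exons of the gene cover 18.02% of these intron bases. Bag3 introns, of which no base is in another exon of the gene, held 402 reads in CT23, 162 in CT29, 174 in CT35, 300 in CT41, 276 in CT47, 170 in CT53, 200 in CT59 and 371 in CT65. Their fitted fold was 1.91 with a peak at 20.3 h (SE 0.90, limma adjusted p = 0.104), beside 20.2 h for the transcript. At low intron levels the added 0.5 RPKM shrinks the fitted fold, so it cannot be set against that of the transcript. Of the other 4, Fkbp4 introns had a fitted peak at 18.3 h (1.83-fold, limma adjusted p = 0.195). Hsp90ab1 introns, 453 bases in all, had a fitted peak at 20.2 h (SE 1.125, 3.96-fold, limma adjusted p = 0.245). The transcript's peak was at 17.9 h (SE 1.09), and the difference was not tested. Hspa4 introns, with 9 to 29 reads per library and 21.1% of their bases in other exons of the gene, had a fitted peak at 2.13 h (1.45-fold, 0.175), away from the transcript's 8.60 h and from the night. With at least 50 intron reads required, Hsph1 and Bag3 introns were called (adjusted p = 0.0184 and 0.0407). Introns gave no called member for late night against late day (1.23% of genes) or for mid day against mid night (0.355%). By limma 3 members and 942 genes had an unadjusted p under 0.05 in the first, and 6 members and 665 genes in the second. Introns of the most-read transcripts gave none of 29 for the 24-h component, against 1.98% of 9853 genes. There 6 members and 1077 genes had an unadjusted p under 0.05 by limma. The introns of Hspa8, also among the 6 (2.13-fold, 16.4 h, adjusted p = 0.389), lie to 97.4% in exons of its other models and give no separate measure.

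Reads across splice junctions are held in a separate table of the same libraries, so they are another readout of the same pools and no replicate. Of 30 members with enough of them, edgeR called 5 for the 24-h component, against 1.69% of 7379 genes: Hsph1 (4.21-fold, peak 17.8 h, adjusted p = 0.00257), Hsp90aa1 (4.60-fold, 19.5 h, 0.0289), Stip1 (2.98-fold, 18.9 h, 0.0327), Fkbp4 (2.45-fold, 17.97 h, 0.0391) and Bag3 (3.04-fold, 20.6 h, 0.0458). When 1 library was left out, Hsph1 stayed called each time (adjusted p 0.000577 to 0.0312). Of the 8 such fits, Fkbp4 lost its call in 7 (adjusted p up to 0.272), Bag3 in 6 (up to 0.15), Hsp90aa1 in 5 (up to 0.0916) and Stip1 in 5 (up to 0.144). Hsph1 had 78.8 RPM (junction reads scaled to the library's total of junction reads) in CT23, 27.5 in CT29, 58.2 in CT35, 143 in CT41, 68.7 in CT47, 46.4 in CT53, 50.97 in CT59 and 131 in CT65. The CT17-phase libraries were again above the other 6. Stip1 had 246 RPM in CT23, 154 in CT29, 109 in CT35, 340.2 in CT41, 218 in CT47, 169 in CT53, 171 in CT59 and 427 in CT65. Hspa8 was not called (2.02-fold, adjusted p = 0.364; called without CT29, 0.041, and without a filter, 0.0185), with 215 RPM in CT41 and 153 in CT65 beside 171 in CT23 and 160.3 in CT29. Hsp90ab1 had a fitted fold of 2.03 at 17.8 h (adjusted p = 0.096), and was called without CT35 (0.0314), without a filter (0.015) and by DESeq2 (0.0245). For mid day against mid night, Hsph1 alone was called by edgeR, against 0.285% of genes (log2 −2.02, adjusted p = 0.00248; 0.136% as lower at mid day). Late night against late day gave none of 30 by edgeR, against 1.41%, with 6 members and 867 genes at an unadjusted p under 0.05. On the junctions of the most-read transcripts edgeR called 6 of 31 for the 24-h component (Hsp90ab1 in addition to the 5), against 2.29%.

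**Figure D5:**
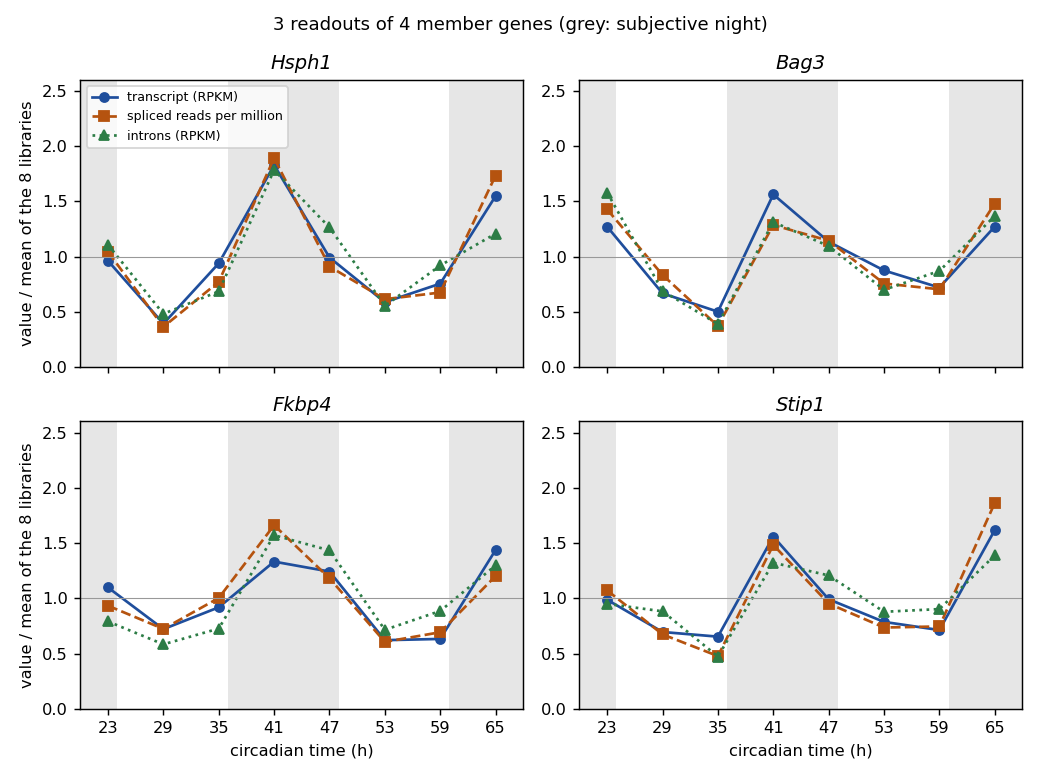
Transcript RPKM (blue), spliced reads in RPM (orange) and intron RPKM (green) of Hsph1, Bag3, Fkbp4 and Stip1, each divided by its mean over the 8 libraries, by circadian time with subjective night in grey. In Hsph1 all 3 readouts are highest in CT41 and lowest in CT29, and in Bag3 all 3 are lowest in CT35.

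A further 56 proteostasis genes, among them other chaperonin subunits, prefoldins, J proteins and HSP90 partners, were set beside the members. Of 53 tested, 1 was called for the 24-h component, Fkbp5 (4.51-fold, log2 2.17, SE 0.30, adjusted p = 0.0101). Fkbp5 (FKBP51), a glucocorticoid-induced immunophilin and the counterpart of Fkbp4, peaked at 12.1 h (SE 0.53), with 13.2 and 10.7 RPKM in CT35 and CT59 and 1.95 and 2.99 in CT23 and CT47. Late night against late day gave it a log2 difference of −2.08 (adjusted p = 0.00738), the only transcript call on that list in this comparison. Its introns (adjusted p = 0.00564, limma) and spliced reads (0.0076, edgeR) had a called 24-h component too. Ubb, a polyubiquitin gene, and Trap1, the mitochondrial HSP90, were the most abundant of those not called (119 and 108 RPKM on average, adjusted p = 0.605 and 0.927). Hikeshi, the nuclear import carrier of HSP70, had a fitted fold of 1.96 at 19.0 h (adjusted p = 0.131); its spliced reads were called (2.76-fold, 0.0371 by edgeR). Hikeshi was named after its values were seen. The median log2 peak to trough was 0.46 over the members, 0.43 over these genes and 0.40 over all genes tested.

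Cirbp and Rbm3, RNA-binding proteins known to be induced by mild cold, had their highest values in the CT11 phase. Cirbp stood at 9.92 and 9.85 RPKM in CT35 and CT59 and at 3.75 to 7.86 in the other 6, with a fitted peak at 9.15 h (1.95-fold, adjusted p = 0.309). Rbm3 stood at 11.3 and 8.16 RPKM in CT35 and CT59 and at 4.24 to 5.81 in the other 6, with a fitted peak at 10.7 h (1.85-fold, adjusted p = 0.29). Neither transcript was called, and spliced reads of Rbm3 were called lower at late night than at late day (log2 −1.57, adjusted p = 0.0312 by edgeR).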

How the data were processed

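The deposited transcript tables hold a lower and an upper value per transcript, exon and intron, which the file headers name only min and max. They scale as RPKM; what separates lower from upper: not given in the sources used here. Coordinates are in build mm9, per the submitters' processing notes. The deposited junction tables hold whole counts of reads across junctions, per the file headers high-quality junctions from RUM. Program versions, read length, strand: not given in the sources used here.

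Lower values were a whole multiple of what 1 read is worth (within 0.1 read) in 99.5 to 99.9% of non-zero transcripts, which gave recovered reads and depth. Of 115699 transcripts, 25898 were named through RefSeq and 53811 through Vega identifiers (GRCm38.p6, names and promoters only). Each gene took the transcript of largest summed lower value.

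Because the tables hold RPKM, limma 3.58.1 (trend, robust) on log2(RPKM + 0.5) replaced the count test. Fold changes are on that scale and understate those of low genes. A cosine and sine of 24 h (5 residual degrees of freedom) gave the 24-h component. The cosine compared the CT23 with the CT11 phase and the sine the CT5 with the CT17 phase. A 12-h term and a day term with phase as a block left 4 and 3 degrees of freedom. Introns were fitted likewise, and junction counts with edgeR 4.0.16 (quasi-likelihood, TMM). P-values were adjusted by Benjamini-Hochberg over every gene in a fit, with 0.05 as the threshold for a call. DESeq2 1.42.0 and edgeR on recovered reads were alternatives (R 4.3.3). No sample was left out or imputed in the fits.

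On simulated data for the 10855 genes, limma recovered 21% of 2-fold and 98% of 4-fold rhythms, with 0.833% false calls, and edgeR on reads 41% and 97%. For introns of 8732 genes the shares were 6% and 87%, and for spliced reads of 7379 genes 39% and 97%. The median fitted fold of simulated intron rhythms was 1.32 for 2-fold and 1.59 for 4-fold ones. The simulated noise was negative binomial and independent between libraries. Its dispersion was the same for every gene, set beforehand and not estimated from these libraries. The shares of recovered and false calls hold for that noise only.

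Members and lists were chosen with earlier results of these data known. Per library values are given for members called in any comparison, alternatives included, and for the most abundant of each role. Hspa1b was added after its values were seen, and others are given by range. Of the further list, the called genes and the 2 most abundant others are named.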

Additional observations from a re-analysis of the deposited data

Results flagged for a closer look

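Within the member genes, 5 splice junctions that no transcript model of the tables lists held reads in data that the comparisons did not use; they are given as values, with no control to set them against. In Hsp90ab1 on chromosome 17 (mm9), the junction from 45707743 to 45707960 held 31 reads over the 8 libraries and that from 45708571 to 45708715 held 22, with 0 reads in CT35, the deepest library, in both. In Tcp1 on chromosome 17, the junction from 13108691 to 13110842 held 62 reads, 30 of them in CT35, that from 13109960 to 13110842 held 61 and that from 13110999 to 13113587 held 27. Tcp1 lies beside Mrpl18 and Acat3, with which it shares exon bases, so these reads may not be of Tcp1 alone. No outlier test was run, since each time has 1 library.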

How the results depend on the processing

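No paired analysis was possible because the labels give no replicate numbers that tie libraries together; the comparison of the days kept circadian phase as a block, which matches libraries by time of day. Signed differences of members with an unadjusted p under 0.05 by limma kept their direction under every alternative run. These were late night against late day and mid day against mid night. A 24-h component has no sign to change, and the peak times of single genes were not compared between alternatives. The cause of the changed counts below was not tested. For the 24-h component, 200 genes and 2 members were called with limma; DESeq2 gave 574 genes and 7 members, edgeR 6 members, a filter of at least 100 reads 5 members, and no filter 25 genes and 0 members. The most-read transcript, an alternative chosen after seeing the data, gave 350 genes and 4 members with limma, and 407 genes and 8 members with edgeR. For late night against late day, with 144 genes and 0 members called, DESeq2 gave 358 genes and 1 member, no filter 24 genes, and the most-read transcript 230 genes, or 258 with edgeR. For mid day against mid night, with 69 genes and 1 member called, DESeq2 gave 206 genes and 7 members, edgeR 5 members, at least 100 reads 3, the upper value 2, no filter 0 genes and 0 members, and the most-read transcript 139 genes and 2 members, or 143 genes and 6 members with edgeR. For the 12-h component, DESeq2 gave 21 genes, and at least 100 reads, the most-read transcript and the same with edgeR 1 gene each against 0; for the second day against the first, DESeq2 gave 1 gene against 0. Introns gave 2 members with at least 50 intron reads and 1 (Hsph1) with a pseudocount of 0.05, chosen after seeing the data, against 0. Spliced reads gave 278 genes with DESeq2, 484 without a filter and 196 with the most-read transcript, against 125. Leaving out each library in turn gave 84 (without CT59) to 252 (without CT35) genes and 0 (without CT29) to 4 (without CT35) members for the 24-h component; 32 (without CT59) to 158 genes and 0 to 1 members for late night against late day; 5 (without CT29) to 162 (without CT35) genes and 0 to 5 members for mid day against mid night; 0 to 1 genes for the day; 65 to 118 genes for introns against 144; and 60 to 186 genes and 1 to 6 members for spliced reads. In the simulation, at this depth and with a dispersion set beforehand, limma recovered few 2-fold rhythms. A fold near 2 that was not called is therefore not shown to be absent.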
